A study of Homo sapiens with 8 samples.

Results

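The sestrin genes SESN1, SESN2 and SESN3, the GADD45 genes GADD45A, GADD45B and GADD45G, and the related genes DDIT4 and DDIT4L were followed across 4 groups of A549 cells. A549 is an established line of human lung adenocarcinoma. The 8 genes were chosen by name, out of 19775 genes with a probe set tied to a single gene, and all of their 18 such probe sets were read. Their brightest probe sets lay between percentiles 50.5 and 98.2 of the probe sets with 1 gene, so all 8 genes entered the comparisons. SESN3 had 7 probe sets, GADD45B 4 and SESN2 2, while the other 5 genes had 1 each.

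All cells had been transfected with DharmaFECT 1, and carried either a control siRNA, a short RNA that silences a matching mRNA, or an siRNA against SRC-1, a coactivator of nuclear receptors made from NCOA1. They then stood for 36 h in medium with dialyzed serum, which lacks small molecules, before medium with or without glucose was given, again with dialyzed serum. The 4 groups were thus control siRNA with glucose, control siRNA without glucose, SRC-1 siRNA with glucose and SRC-1 siRNA without glucose, with 2 Affymetrix expression arrays each that the labels call biological replicates. How long glucose was withheld, and how many siRNA sequences were used, was not stated in the labels, and untransfected cells are not among the groups.

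Sestrins and DDIT4 are stress-induced brakes on mTORC1, the kinase complex that drives growth when nutrients are plentiful. SESN2 and SESN1 hold back the GATOR2 complex when leucine is scarce and also take part in antioxidant defence, and DDIT4, also called REDD1, acts through the TSC complex. GADD45 proteins are small acidic proteins that bind PCNA and CDK1, activate the stress kinase MAP3K4 and take part in growth arrest, DNA repair and DNA demethylation. Textbook inducers of these genes are p53 (SESN1, SESN2, GADD45A), FOXO factors (SESN3), the ATF4 and CHOP branch of the stress response (SESN2, GADD45A, DDIT4) and hypoxia (DDIT4).

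Without glucose the sestrins moved in opposite directions, and GADD45A, GADD45B and DDIT4 were higher. GADD45A was 4.57-fold higher, SESN2 2.89-fold, GADD45B 2.27-fold and DDIT4 1.51-fold in cells with control siRNA, while SESN3 was 1.89-fold and SESN1 1.46-fold lower. With SRC-1 siRNA the same 6 genes were called in the same directions, and GADD45G (1.35-fold higher) and DDIT4L (1.41-fold lower) were called as well. SRC-1 siRNA itself gave no call for any of the 8 genes in either medium.

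The promoters of 5 of these genes are shown to set those that rose without glucose (SESN2, GADD45B and DDIT4) beside paralogues that fell (SESN3 in both arms, DDIT4L with a call after SRC-1 siRNA only). They were chosen for display after their values were seen, so a motif that differs between them is a description only. Each sequence is 300 bases from RefSeq (GRCh38.p14), from 250 bases before to 50 bases after the annotated start, written in the direction of the gene. SESN2 is on the plus strand (chr1:28259268-28259567), as are GADD45B (chr19:2475877-2476176) and DDIT4 (chr10:72273674-72273973), and SESN3 (chr11:95232426-95232725) and DDIT4L (chr4:100190419-100190718) are on the minus strand. Capitals mark matches on either strand to the CCAAT box (CCAAT), the TATA box (TATAAA), the C/EBP-ATF response element (TGATGNAA), the cAMP response element (TGACGTCA), the hypoxia response core (ACGTG), the AP-1 site (TGANTCA) and the FOXO site (GTAAACA).
SESN2: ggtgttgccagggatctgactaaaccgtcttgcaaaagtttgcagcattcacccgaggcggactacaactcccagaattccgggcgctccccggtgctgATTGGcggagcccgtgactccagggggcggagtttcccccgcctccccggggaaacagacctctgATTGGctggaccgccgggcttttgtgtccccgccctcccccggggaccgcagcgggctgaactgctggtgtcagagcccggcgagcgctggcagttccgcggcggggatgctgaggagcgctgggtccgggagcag
GADD45B: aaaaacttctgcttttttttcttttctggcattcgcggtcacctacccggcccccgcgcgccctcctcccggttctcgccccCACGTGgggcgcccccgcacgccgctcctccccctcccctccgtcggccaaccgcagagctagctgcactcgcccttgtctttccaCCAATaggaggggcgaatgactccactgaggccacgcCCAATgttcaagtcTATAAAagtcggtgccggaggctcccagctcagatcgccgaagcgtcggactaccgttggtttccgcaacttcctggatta
DDIT4: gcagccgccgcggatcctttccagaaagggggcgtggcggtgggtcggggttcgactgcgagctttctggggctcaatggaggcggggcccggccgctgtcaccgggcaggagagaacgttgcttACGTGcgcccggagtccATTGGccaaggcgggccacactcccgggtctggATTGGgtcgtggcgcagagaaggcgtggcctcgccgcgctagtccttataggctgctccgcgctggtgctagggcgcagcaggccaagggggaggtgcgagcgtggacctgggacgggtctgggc
SESN3: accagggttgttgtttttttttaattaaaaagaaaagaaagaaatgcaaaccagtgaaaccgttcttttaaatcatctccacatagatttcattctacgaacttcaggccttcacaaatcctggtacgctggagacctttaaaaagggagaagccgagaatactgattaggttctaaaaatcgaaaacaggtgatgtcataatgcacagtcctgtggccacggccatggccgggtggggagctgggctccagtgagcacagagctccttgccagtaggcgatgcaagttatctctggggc
DDIT4L: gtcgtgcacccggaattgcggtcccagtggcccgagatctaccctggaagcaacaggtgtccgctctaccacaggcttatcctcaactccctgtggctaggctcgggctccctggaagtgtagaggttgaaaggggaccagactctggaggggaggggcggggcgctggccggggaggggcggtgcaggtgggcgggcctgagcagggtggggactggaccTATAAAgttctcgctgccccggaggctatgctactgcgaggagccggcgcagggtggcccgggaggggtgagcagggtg

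The SESN2, GADD45B and DDIT4 windows each held 2 CCAAT boxes, and the SESN3 and DDIT4L windows held none. Of 35116 windows of this length, 34.6% held at least 1 CCAAT box and 10.8% at least 2. In SESN2 both boxes lay on the opposite strand, starting 151 and 86 bases before the start, and in DDIT4 likewise, at 108 and 75 bases. DDIT4 also held the hypoxia core 125 bases before the start (21.4% of windows hold it), and GADD45B held it on both strands as the E-box CACGTG, which overlaps it (7.26% of windows). GADD45B and DDIT4L had a TATA box 31 and 29 bases before the start (11.5% of windows). In SESN3 none of these motifs was found. The C/EBP-ATF element, in 3.62% of windows, was found among these genes only in GADD45G, as TTACATCA on the opposite strand, 102 bases before the start. The GADD45G window, whose gene was not called with control siRNA, also held 1 CCAAT box, 79 bases before the start, and the E-box with the hypoxia core on both strands. SESN1, which fell in both arms, has 3 annotated windows, of which 2 hold a single CCAAT box, so CCAAT boxes were not limited to genes that rose. The GC box GGGCGG (45.0% of windows), not capitalised above, was found 2 times in SESN2, 3 times in DDIT4L and 14 times over the SESN1 windows. The cAMP response element (1.85% of windows), the AP-1 site (7.71%), the FOXO site (3.42%) and the ER stress element (0.0769%), which begins with a CCAAT box, were in no window of these genes. These are letter matches in short windows and were not tested as binding sites. GADD45A was matched to no window.

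The arrays themselves were checked first. NCOA1 fell 9.10-fold with glucose (adjusted p = 1.44e-05, limma) and 8.78-fold without (adjusted p = 1.65e-05), so the labels and the targeted mRNA go the same way. All 12 markers of this epithelial line, such as the keratins KRT8 and KRT18, were above the limit for dim probe sets (log2 4.80), and the leukocyte marker PTPRC and the liver marker ALB lay at percentiles 10.4 and 13.5. Of 11 measured markers of other cell types 8 stood above that limit, the highest being NEFL at percentile 82.1, and their median in the 4 groups was 5.45 to 5.56. Some markers moved with glucose: NEFL, a neuronal marker, was lower without it in both arms (-0.69 and -0.68), and HBB was higher with control siRNA (0.30) but not with SRC-1 siRNA (-0.025). Of the 12 markers of the line, 1 was called higher and 4 lower in either arm, among them KRT7 (0.38 with control siRNA) and KRT19 (-0.57). The part of these shifts in the results was not tested. The log2 difference between the 3-prime and 5-prime control probe sets, a sign of RNA quality, was 0.414 to 0.535 for beta-actin without glucose and 0.513 to 0.643 with glucose, and 0.123 to 0.141 against 0.139 to 0.172 for GAPDH. Within each arm the GAPDH values without glucose lay below those with glucose, as did the beta-actin values with control siRNA, whereas the beta-actin values overlapped with SRC-1 siRNA. Their part in the results was not tested.

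In the comparison without and with glucose, 6 of the 8 genes were called with control siRNA, 4 higher and 2 lower, beside 45.2% of all 13584 genes tested (21.6% higher and 23.6% lower). With SRC-1 siRNA all 8 were called, 5 higher and 3 lower, beside 44.7% of all genes (20.0% higher and 24.6% lower). A call is a moderated limma test with Benjamini-Hochberg adjusted p under 0.05. The groups did not overlap for 7 of the 8 genes with control siRNA (71.9% of all genes) and for 8 with SRC-1 siRNA (71.6%). Called the same way in both arms were 6 of the 8, beside 38.0% of all genes. At least 2-fold and called were 3 of the 8, GADD45A, SESN2 and GADD45B, in either arm, beside 4.31% and 4.39% of all genes. Values are log2 signals and differences of group means, without minus with glucose, and in bulk RNA a change in all cells cannot be told apart from a change in a share of them.

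**Figure D1:**
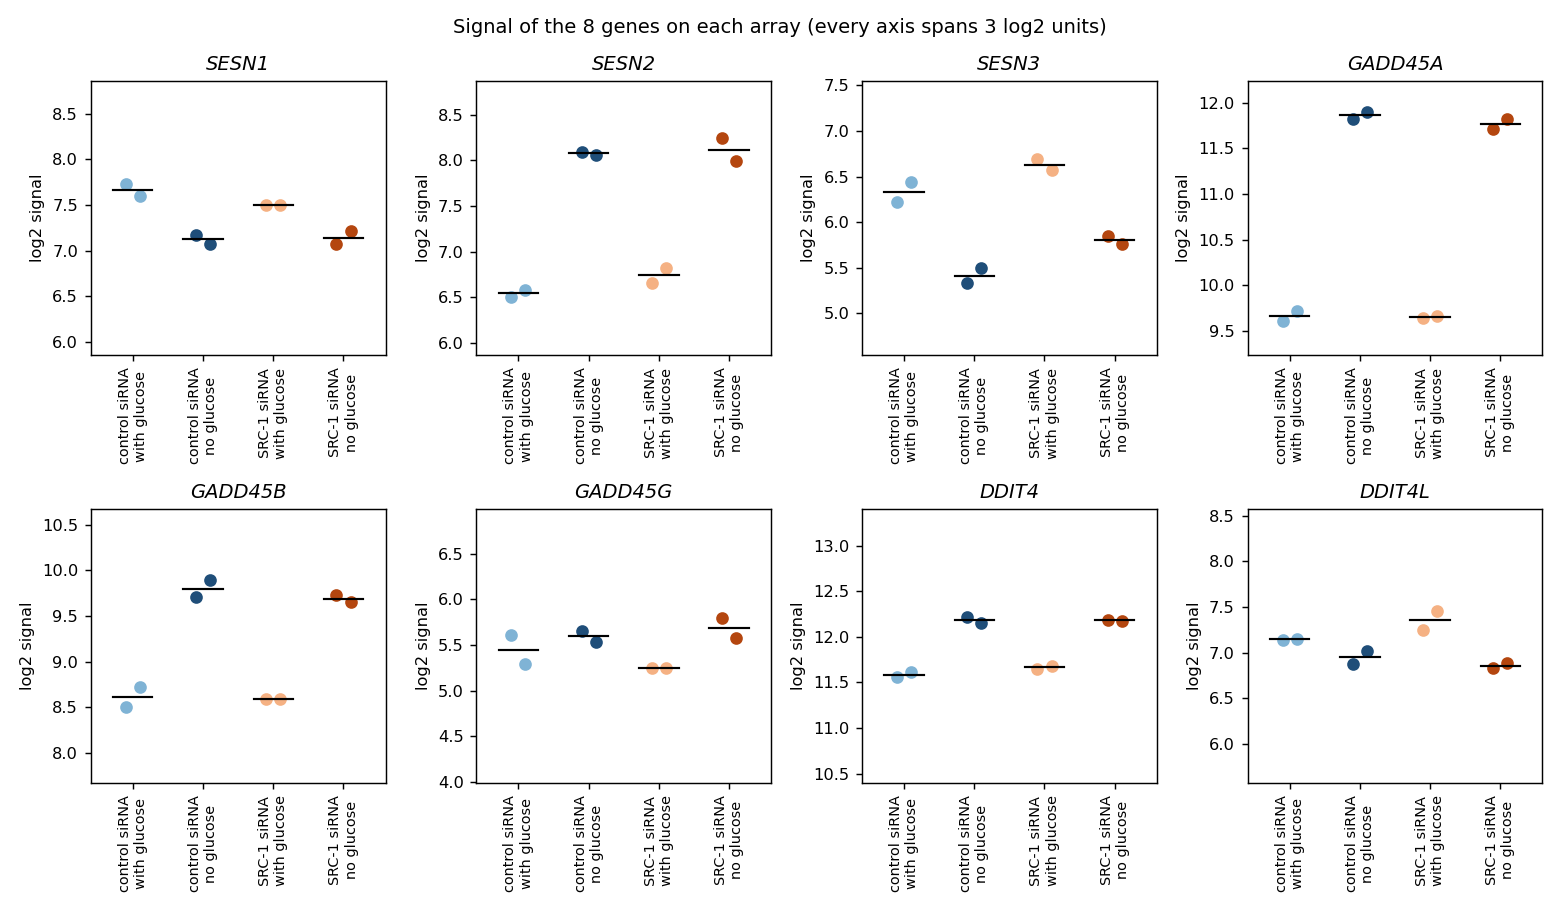
Log2 signal of the brightest probe set of each gene (vertical axis) on each of the 8 arrays, grouped by siRNA and glucose (horizontal axis), with points for arrays and lines for the means of 2 arrays. GADD45A, SESN2, GADD45B and DDIT4 lie higher on all 4 arrays without glucose and SESN1, SESN3 and DDIT4L lower, while the groups of GADD45G overlap.

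Among the sestrins, SESN2 was the gene that rose. Its brightest probe set (223195_s_at) read 6.51 and 6.58 with glucose and 8.09 and 8.06 without in cells with control siRNA, and 6.65 and 6.82 with and 8.24 and 7.99 without in cells with SRC-1 siRNA. All 4 arrays without glucose lay more than 1 log2 unit above all 4 arrays with glucose. The difference was 1.53 ± 0.0965 (SE, n = 2 per group, adjusted p = 9.39e-06) with control siRNA and 1.38 ± 0.0965 (adjusted p = 1.59e-05) with SRC-1 siRNA, and in size it stood at rank 151 and 222 of the 13584 genes. The other SESN2 probe set (223196_s_at) read 6.35 and 6.44 with glucose and 8.26 and 8.47 without in cells with control siRNA, a larger difference of 1.97 ± 0.119 (3.92-fold). With SRC-1 siRNA it read 6.40 and 6.63 with and 8.22 and 8.02 without glucose, a difference of 1.60 ± 0.119 (3.04-fold). Both probe sets thus rose in both arms. On the brightest probe set the arrays of the groups without glucose, 8.08 ± 0.0189 (SD, n = 2) with control and 8.11 ± 0.176 with SRC-1 siRNA, overlapped.

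SESN1, the sestrin best known as a p53 target, fell. It read 7.73 and 7.60 with glucose and 7.17 and 7.08 without in cells with control siRNA. With SRC-1 siRNA it read 7.50 on both arrays with glucose and 7.07 and 7.21 without. The arrays without glucose were below those with glucose in both arms, by 0.54 ± 0.0792 (difference -0.54, adjusted p = 7.11e-04) with control siRNA and by 0.35 ± 0.0792 (difference -0.35, adjusted p = 0.00646) with SRC-1 siRNA. The second call was lost when replicate 1 of the group with SRC-1 siRNA without glucose was left out (difference -0.28, adjusted p = 0.0520), and the adjusted p lay between 0.00269 and 0.0143 under the alternatives that kept all arrays. The 2 groups without glucose, at 7.12 ± 0.0676 and 7.14 ± 0.0995, were not separated by their spread.

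SESN3, a sestrin driven by FOXO factors, fell more than SESN1 on its brightest probe set (225123_at). It read 6.22 and 6.44 with glucose and 5.33 and 5.50 without in cells with control siRNA. In cells with SRC-1 siRNA it read 6.69 and 6.57 with glucose and 5.85 and 5.77 without. The 4 groups did not overlap, and their order from low to high was control siRNA without glucose, SRC-1 siRNA without glucose, control siRNA with glucose and SRC-1 siRNA with glucose. The difference was -0.92 ± 0.0966 (adjusted p = 1.29e-04) and -0.82 ± 0.0966 (adjusted p = 2.27e-04). The other 6 SESN3 probe sets were dim, with means between 2.67 and 4.49, all under the limit of 4.80. Fitted with all 41091 probe sets, none of these 6 was called in either arm, and their differences lay between -0.37 and 0.20 with control siRNA and between -0.11 and 0.22 with SRC-1 siRNA. The fall of SESN3 therefore rests on 1 probe set.

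**Figure D2:**
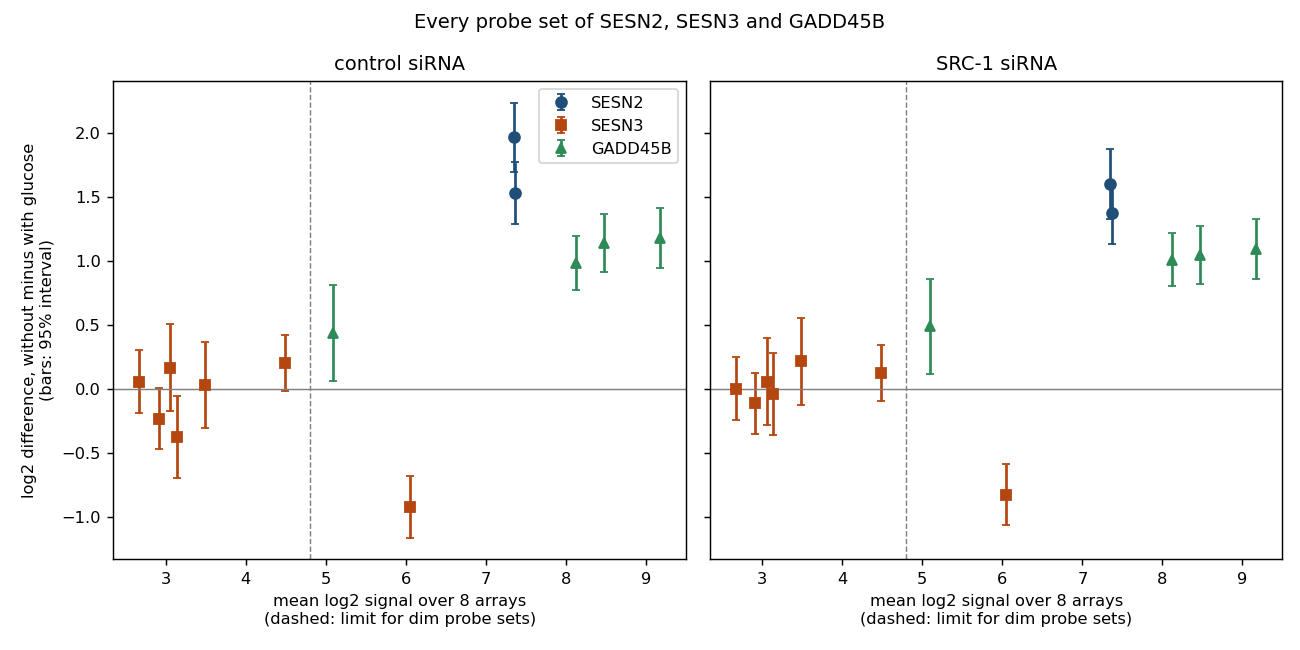
Log2 difference without minus with glucose (vertical axis, bars are 95% intervals) of each probe set of SESN2, SESN3 and GADD45B against its mean log2 signal over the 8 arrays (horizontal axis), for control siRNA and SRC-1 siRNA, with the limit for dim probe sets dashed. Both SESN2 probe sets and the 3 brighter GADD45B probe sets are high, and of the 7 SESN3 probe sets only the brightest is above the limit and low.

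In the GADD45 family, which couples stress to growth arrest, GADD45A had the largest difference of the 8 genes. It read 9.61 and 9.72 with glucose and 11.82 and 11.90 without in cells with control siRNA, and 9.64 and 9.66 with and 11.71 and 11.82 without in cells with SRC-1 siRNA. Every array without glucose lay far above every array with glucose, and the arrays of the 2 siRNAs overlapped in either medium. The difference was 2.19 ± 0.0739 (95% interval 2.02 to 2.36, adjusted p = 6.58e-07) with control siRNA, rank 41 of 13584 by size. With SRC-1 siRNA it was 2.12 ± 0.0739 (95% interval 1.95 to 2.29, adjusted p = 7.56e-07), rank 47.

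GADD45B, the member known as an early target of inflammatory and TGF-beta signals, rose on 3 of its 4 probe sets. The brightest (207574_s_at) read 8.51 and 8.73 with glucose and 9.71 and 9.89 without in cells with control siRNA. It read 8.59 on both arrays with glucose and 9.73 and 9.65 without in cells with SRC-1 siRNA. The difference was 1.18 ± 0.0944 (adjusted p = 3.09e-05) and 1.10 ± 0.0944 (adjusted p = 4.39e-05). In the fit over all probe sets, 209304_x_at gave 1.14 ± 0.101 and 1.05 ± 0.101, and 209305_s_at gave 0.99 ± 0.0921 and 1.01 ± 0.0921, all called. The dimmest, 213560_at, with a mean of 5.09 near the limit for dim probe sets, gave 0.44 ± 0.164 (adjusted p = 0.0882) and 0.49 ± 0.164 (adjusted p = 0.0615) and was not called. Of the 18 probe sets of the 8 genes, 9 were called in that fit with control siRNA and 11 with SRC-1 siRNA, beside 24.1% and 23.4% of the 41091 probe sets. With control siRNA 7 were higher (11.7% of all) and 2 lower (12.4%), and with SRC-1 siRNA 8 were higher (10.8%) and 3 lower (12.6%).

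GADD45G, the member linked to differentiation, was near the middle of the signal range and had the smallest difference of the 8 genes with control siRNA. It read 5.61 and 5.29 with glucose and 5.65 and 5.54 without in cells with control siRNA, and 5.24 on both arrays with and 5.79 and 5.57 without in cells with SRC-1 siRNA. The groups overlapped with control siRNA and not with SRC-1 siRNA. The difference was 0.15 ± 0.116 (95% interval -0.12 to 0.41, adjusted p = 0.335) with control siRNA and 0.44 ± 0.116 (adjusted p = 0.0143) with SRC-1 siRNA. The latter call was lost without replicate 1 of the group without glucose (0.33, adjusted p = 0.0980), and without either array with glucose (0.44, adjusted p = 0.0584 and 0.0543), while the adjusted p lay between 0.00559 and 0.0255 under the alternatives that kept all arrays. The difference between the arms was 0.29 ± 0.163 (adjusted p = 0.999), so an effect of SRC-1 siRNA on this response was not shown.

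DDIT4, the mTORC1 inhibitor REDD1, was bright in every group and rose by a small and steady amount. It read 11.56 and 11.61 with glucose and 12.21 and 12.15 without in cells with control siRNA, and 11.64 and 11.68 with and 12.19 and 12.17 without in cells with SRC-1 siRNA. The groups with and without glucose were well apart, and the groups without glucose lay on top of each other (12.18 ± 0.0464 and 12.18 ± 0.0126). The difference was 0.59 ± 0.0637 (adjusted p = 1.40e-04) and 0.51 ± 0.0637 (adjusted p = 2.95e-04), or 1.51-fold and 1.43-fold.

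DDIT4L, also called REDD2, a paralogue that likewise restrains mTORC1, went the other way. It read 7.14 and 7.15 with glucose and 6.87 and 7.02 without in cells with control siRNA, and 7.25 and 7.46 with and 6.83 and 6.89 without in cells with SRC-1 siRNA. Every array without glucose was below every array with glucose. The difference with control siRNA, -0.20 ± 0.0880 (95% interval -0.40 to 0.0038, adjusted p = 0.102), was not called, and with SRC-1 siRNA it was -0.50 ± 0.0880 (adjusted p = 0.00200). The difference between the arms was -0.30 ± 0.124 (unadjusted p = 0.0414, adjusted p = 0.999) and was not called. In the limma fit over all probe sets its unadjusted p was 0.0609.

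**Figure D3:**
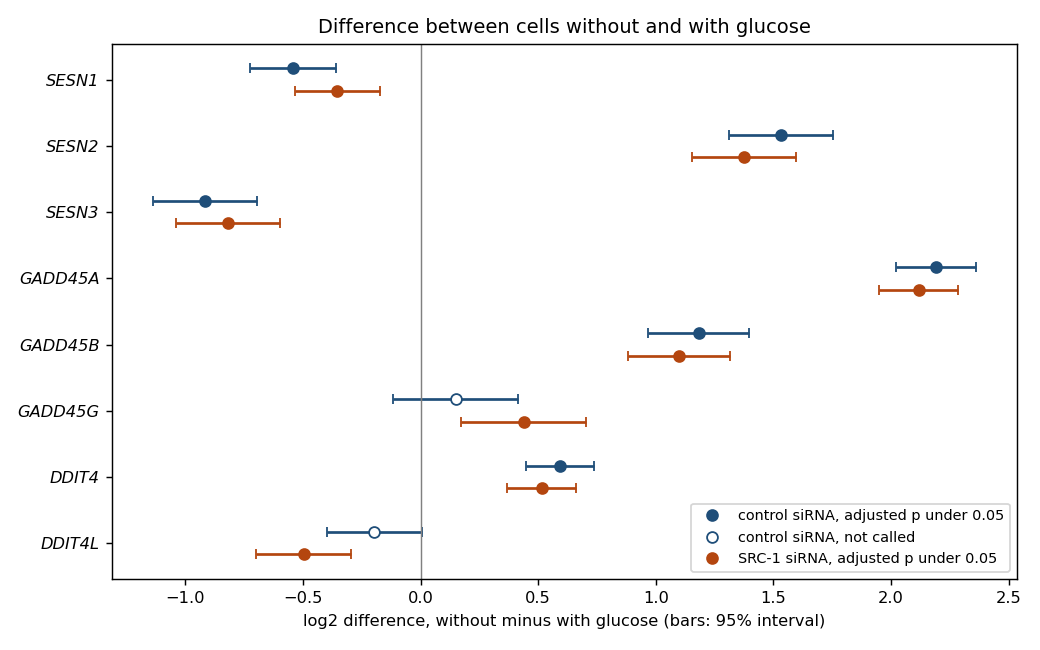
Log2 difference without minus with glucose (horizontal axis, bars are 95% intervals) for the 8 genes (vertical axis) with control siRNA and SRC-1 siRNA, filled where the adjusted p was under 0.05. SESN2, GADD45A, GADD45B and DDIT4 lie right of 0 and SESN1 and SESN3 left of it in both arms, and DDIT4L and GADD45G are called only with SRC-1 siRNA.

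For 7 of the 8 genes, all but GADD45G, the 4 arrays without glucose lay on a single side of the 4 arrays with glucose, as they did for 53.9% of all genes. The effects of glucose with control and SRC-1 siRNA share no array. The difference between them was called for 0 of the 8 genes and for 0 of 13584 genes (limma), where 465 genes (3.42%) had an unadjusted p under 0.05, DDIT4L among them. The 95% intervals of this difference bound how far the arms could part on the brightest probe sets. They were -0.31 to 0.16 for GADD45A, -0.47 to 0.15 for SESN2, -0.39 to 0.22 for GADD45B and -0.28 to 0.13 for DDIT4. For SESN1 the interval was -0.068 to 0.45 and for SESN3 -0.22 to 0.41. For GADD45G it was -0.085 to 0.66 and for DDIT4L -0.58 to -0.015. In the fit over all probe sets the interval of DDIT4L was -0.62 to 0.017, which includes 0. The other SESN2 probe set (223196_s_at) gave -0.36 in the fit over all probe sets and was not called. Its interval, -0.75 to 0.017, reached further than that of the brightest.

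Genes with the most similar profile over the 8 arrays were found by the root mean square distance between centred log2 signals. These distances are descriptions over 8 arrays that mainly part by glucose. Nearest to GADD45A were NUCB2 (distance 0.0618), asparagine synthetase ASNS (0.0662) and the stress protein NUPR1 (0.0691), with differences of 2.24, 2.30 and 2.09 in cells with control siRNA. Nearest to SESN2 were the seryl-tRNA synthetase SARS1 (0.0634), the death-promoting PMAIP1 (0.0776) and TSC22D3 (0.0955), a gene known as glucocorticoid-induced. GADD45B was closest to the CTP synthase CTPS1 (0.0428), FRMD6 (0.0582) and RND3 (0.0664), and DDIT4 to TMBIM6 (0.0199), YIF1A (0.0254) and SERTAD3 (0.0256). Among the genes that fell, SESN1 was closest to DIAPH2 (0.0531), PPP1CC (0.0544) and TYRO3 (0.0590), and SESN3 to ANXA13 (0.0888), NACC2 (0.0955) and the chemokine CCL2 (0.112).

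Knockdown of SRC-1 asks whether the coactivator bears on these genes in either medium. None of the 8 was called with glucose or without, beside 0.00736% and 0.0221% of all genes, or on average over both media (0.0294%). With glucose 2 of the 8, SESN3 and DDIT4L, had an unadjusted p under 0.05 (5.75% of all genes), and without glucose 1, SESN3 (3.19%), as on average over both media (4.96%). With glucose the arrays of the 2 siRNAs did not overlap for 6 of the 8 genes (32.5% of all genes), and without glucose for 1, SESN3 (29.2%).

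SESN3 had the largest of these differences. It was higher with SRC-1 siRNA by 0.30 ± 0.0966 with glucose (95% interval 0.079 to 0.52, unadjusted p = 0.0138, adjusted p = 0.832) and by 0.39 ± 0.0966 without (95% interval 0.17 to 0.62, unadjusted p = 0.00320, adjusted p = 0.999). Averaged over both media it was 0.35 ± 0.0683 (1.27-fold, unadjusted p = 8.31e-04, adjusted p = 0.641), rank 10 of 13584 by size, and not called. All 4 arrays with SRC-1 siRNA lay above the control arrays of the same medium. Among the dim SESN3 probe sets, 1553869_at went the other way with glucose (-0.40 ± 0.142, unadjusted p = 0.0195, adjusted p = 0.828).

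The other genes differed less between the siRNAs. GADD45A differed by -0.016 ± 0.0739 with glucose (95% interval -0.18 to 0.15) and by -0.090 ± 0.0739 without (-0.26 to 0.079). DDIT4 differed by 0.077 ± 0.0637 (-0.069 to 0.22) and by -0.0012 ± 0.0637 (-0.15 to 0.14). SESN2 stood at 0.20 ± 0.0965 with glucose (-0.024 to 0.42) and 0.038 ± 0.0965 without (-0.18 to 0.26), and DDIT4L at 0.21 ± 0.0880 (0.0095 to 0.41) and -0.089 ± 0.0880 (-0.29 to 0.11). On these probe sets the intervals leave out a log2 change of 0.5 in either medium. The other SESN2 probe set (223196_s_at) went the other way without glucose, at -0.25 ± 0.119 (-0.52 to 0.024) with arrays that did not overlap, and its interval includes such a change. With glucose it stood at 0.12 ± 0.119 (-0.15 to 0.39). For DDIT4L with glucose, the interval in the fit over all probe sets was wider, from -0.013 to 0.43. The intervals of GADD45B ran from -0.24 to 0.19 and from -0.32 to 0.11, those of SESN1 from -0.35 to 0.012 and from -0.16 to 0.20, and those of GADD45G from -0.47 to 0.061 and from -0.18 to 0.35.

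**Figure D4:**
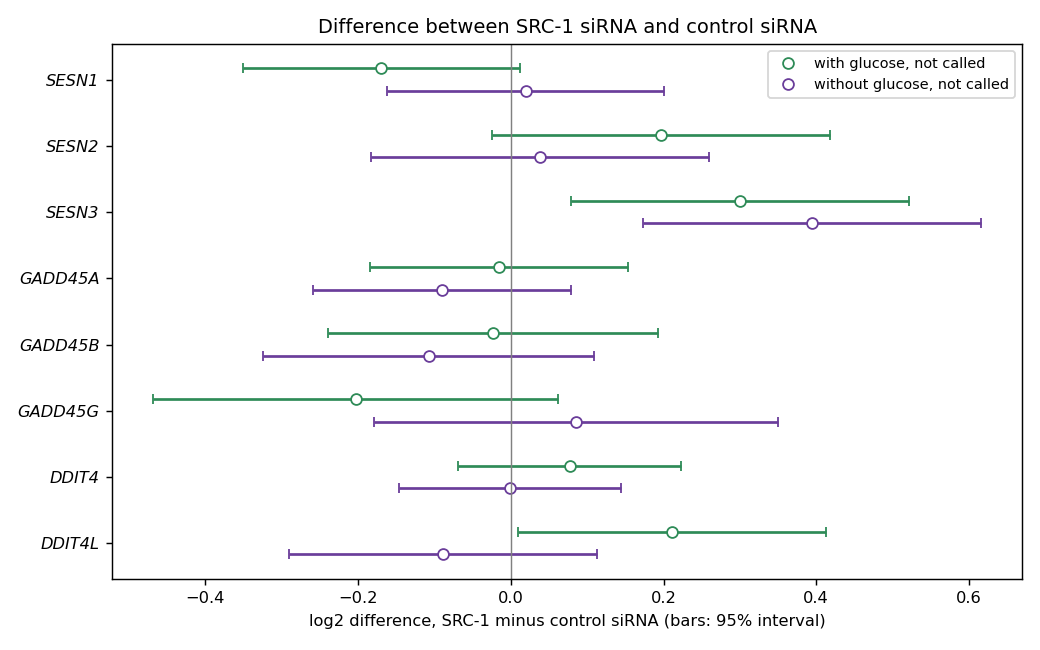
Log2 difference SRC-1 minus control siRNA (horizontal axis, bars are 95% intervals) for the 8 genes (vertical axis) with and without glucose, with open points since none was called. SESN3 is the only gene whose interval lies right of 0 in both media, at 0.30 and 0.39.

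Lists of genes around these 8 were read against the share of all genes called, which was 21.6% higher and 23.6% lower with control siRNA (45.2% in all) and 20.0% and 24.6% with SRC-1 siRNA (44.7% in all). Among factors known to drive the 8 genes, 9 of 19 were higher and 3 lower with control siRNA, 63.2% in all (median 0.14, against -0.00088 for all genes). DDIT3, the stress factor CHOP, was 21.2-fold higher (4.40 ± 0.0861), ATF3 12.8-fold (3.67 ± 0.110, called on 2 of its 3 probe sets), CEBPB 1.98-fold (0.98 ± 0.0708) and ATF4 1.87-fold (0.90 ± 0.0614). In the ATF4 and CHOP branch, which shares those 4 genes, 26 of 32 were higher and 3 lower, 90.6% in all (median 0.99), NIBAN1 by 4.13 ± 0.0854, STC2 by 2.77 ± 0.0789 and PCK2 by 2.27 ± 0.0641 among them. With SRC-1 siRNA the counts were 8 higher and 2 lower for the factors (52.6% in all) and 26 and 3 for the branch (90.6%).

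Of 26 tested p53 targets, among which SESN1 is counted, 8 were higher and 10 lower with control siRNA, 69.2% in all beside 45.2% of all genes (median 0.0067). As over all genes, the calls went about equally in either direction. The pro-death genes PMAIP1 (1.59 ± 0.0742) and TNFRSF10B (0.71 ± 0.0622, called on 3 of its 4 probe sets) and the secreted factor GDF15 (0.69 ± 0.0672, called on 1 of its 3 probe sets) rose, and the DNA repair gene DDB2 fell (-0.71 ± 0.0705). With SRC-1 siRNA 9 were higher and 10 lower (73.1%), and 12 in all were called without replicate 1 of the group without glucose.

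Among partners of GADD45 proteins, 2 of 14 were higher and 9 lower with control siRNA (median -0.37), 78.6% in all beside 45.2% of all genes, and 2 and 7 with SRC-1 siRNA, 64.3% beside 44.7%. The replication clamp PCNA (-1.30 ± 0.0729), the mitotic kinase CDK1 (-0.78 ± 0.0905) and its cyclin CCNB1 (-0.48 ± 0.0708, called on 1 of its 2 probe sets) fell while GADD45A and GADD45B rose. The DNA demethylase TET1 also fell (-1.38 ± 0.0979), to 4.74 without glucose, below the limit for dim probe sets.

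Of partners of sestrins and of redox enzymes, 3 of 14 were higher and 2 lower with control siRNA (median 0.062), and 3 and 5 with SRC-1 siRNA. That is 35.7% and 57.1% in all, below and above the 45.2% and 44.7% of all genes. The autophagy kinase ULK1 (0.70 ± 0.0949), the autophagy receptor SQSTM1 (0.52 ± 0.0735) and the antioxidant factor NFE2L2 (0.28 ± 0.0749, called on 1 of its 3 probe sets) rose, and the peroxiredoxin PRDX1 fell (-0.25 ± 0.0603). The total of 5 with control siRNA became 3 without replicate 1 of either control group, the one without and the one with glucose. The total of 8 with SRC-1 siRNA became 3 or 4 without any array of its groups.

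Sestrins and DDIT4 act on mTORC1. Of 16 genes of the mTOR complexes, their targets and the TSC complex, 5 were higher and 6 lower with control siRNA (median 0.12). That is 68.8% in all beside 45.2% of all genes. With SRC-1 siRNA 6 were higher and 4 lower (62.5% beside 44.7%). This list also holds RICTOR, MAPKAP1 and PRR5, which belong to mTORC2, and its further counts are given under mTORC1. MAPKAP1 and PRR5 were among the 6 lower with control siRNA, and RICTOR among the 6 higher with SRC-1 siRNA. EIF4EBP1, which holds back translation when mTORC1 is off, rose (1.05 ± 0.0749) while its paralogue EIF4EBP2 fell (-0.97 ± 0.0984), the TSC subunit TBC1D7 rose (0.43 ± 0.0838), and RPTOR, the scaffold of mTORC1, fell (-0.45 ± 0.0908). Of 24 genes of amino acid sensing, 6 were higher and 5 lower with control siRNA (median 0.076) and 4 and 5 with SRC-1 siRNA. Their shares, 45.8% and 37.5% in all, were near or below those of all genes. Among those called with control siRNA were ITFG2 of the KICSTOR complex (1.51 ± 0.107), FNIP2 (-1.17 ± 0.0941), SEC13 (0.45 ± 0.0625) and LAMTOR5 (-0.33 ± 0.0663). Of 13 genes of AMPK and its upstream kinases, 5 were higher and 4 lower with control siRNA (median 0.056; 69.2% in all) and 2 and 4 with SRC-1 siRNA (46.2%, near the share of all genes). The regulatory subunits PRKAG2 (0.71 ± 0.0730) and PRKAG1 (0.70 ± 0.0755) rose, and the catalytic subunit PRKAA2 (-0.92 ± 0.122) and STK11, the kinase LKB1 (-0.64 ± 0.0801), fell. Of the genes just named, TBC1D7 was called with control siRNA on 1 of its 2 probe sets, STK11 on 1 of 3 and PRKAA2 on 2 of 5. In that arm ITFG2 was called on 2 of 4, EIF4EBP2 and PRKAG2 on 3 of 5 each, FNIP2 on 3 of 4, and the others on all of theirs. With control siRNA, no probe set of the genes named in these lists was called in the opposite direction. This was not checked with SRC-1 siRNA.

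Leaving out arrays shrank some of these totals with control siRNA. Without replicate 1 or 2 of control siRNA without glucose, 5 or 7 of the 16 mTORC1 genes and 7 of the 24 sensing genes were called in all. For AMPK it was 5 of 13 without replicate 1 of that group or replicate 2 of control siRNA with glucose. With SRC-1 siRNA, 6 mTORC1 genes were called without replicate 1 of either group with SRC-1 siRNA. After SRC-1 knockdown no gene of these lists was called in either medium or on average.

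**Figure D5:**
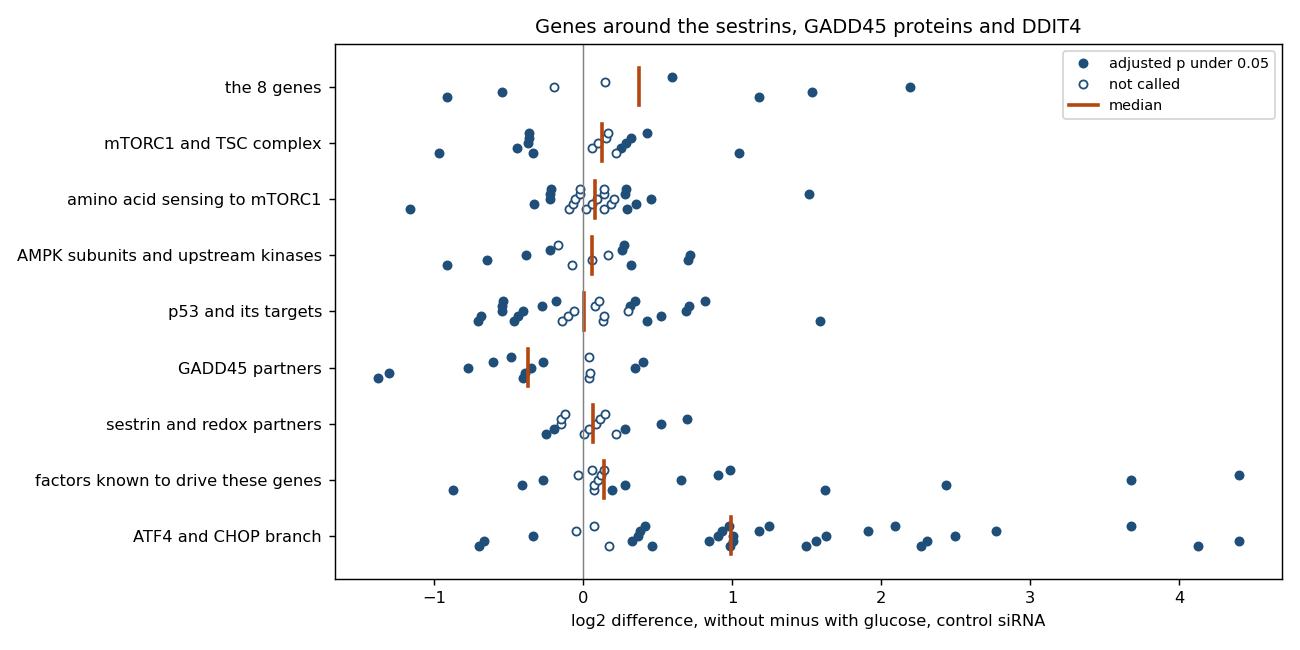
Log2 difference without minus with glucose in cells with control siRNA (horizontal axis) of each gene in the 8 genes and in 8 lists around them (vertical axis), filled where the adjusted p was under 0.05, with the median as a bar. The ATF4 and CHOP branch lies to the right (median 0.99) and partners of GADD45 to the left (median -0.37). The other lists have genes on either side of 0. The list labelled mTORC1 and TSC complex also holds RICTOR, MAPKAP1 and PRR5 of mTORC2.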

How the data were processed

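The authors deposited 1 table of log2 signals for 8 Affymetrix arrays. No source names the log base, and base 2 was read off the steps between spiked control transcripts (1.94, 2.00 and 1.87 units). Biotinylated cRNA was made by the standard Affymetrix procedure, per the labels' protocols. Background correction, summarization and normalization are not given in the sources used here. Array medians were 4.97 to 5.01, so no further scaling was applied.

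Gene names came from the platform annotation and were matched by Entrez identifier. Of 41091 with 1 gene, those with a mean under the 40th percentile (log2 4.80) were left out and the brightest per gene kept, giving 13584 genes. All 8 arrays entered 1 limma fit (limma 3.58.1, R 4.3.3) with a mean per group, moderated two-sided tests and Benjamini-Hochberg adjustment over all genes at 0.05. A second fit over all 41091 probe sets without the filter gave each further probe set a test. A permutation test of 2 against 2 arrays cannot go below p = 0.333, and nothing says how cultures were kept apart, so a p-value reflects only how far these arrays differ, which may be technical. The number of arrays limits the precision (median SE 0.0834). The fit was tested on simulated arrays.

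Named are the 8 genes, NCOA1, up to 4 genes per list with the smallest p with control siRNA, and the 3 nearest profiles of each gene called in both arms. The genes and lists were chosen with earlier results of these data known, so their counts are descriptions. No list was tested as a set. Promoter sequences are from RefSeq (GRCh38.p14) and matched 7 of the 8 genes. No coordinates are given for the probe sets, since the table names no build. Alternatives were quantile normalization, a filter at the 60th percentile or none at all, averaging the probe sets of each gene, no probe sets with names in _s_at or _x_at, a prior that follows expression, only the groups compared, a replicate block and each array left out.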

Additional observations from a re-analysis of the deposited data

How the results depend on the processing

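Directions of the 8 genes held for every call under quantile normalization and the other alternatives. Without probe sets named _s_at or _x_at, SESN1, SESN2 and DDIT4 had none left, and 2 of the 8 genes were called with control siRNA and 5 with SRC-1 siRNA. GADD45B then rested on 213560_at (0.44, adjusted p = 0.0564, with control siRNA; 1.78e-08 to 0.0564 over the alternatives). The filter at the 60th percentile dropped SESN3 and GADD45G. When the probe sets of each gene were averaged, SESN3 fell under the filter and was not tested. With the replicate number as a block 6 and 8 of the 8 genes were called, as without it. The deviations of same-numbered arrays correlated between -0.096 and 0.12, so the numbers were not taken to pair the arrays. The block left 1 gene called after SRC-1 siRNA without glucose, where 3 were called, and moved no other count by over 1.5 times.

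Without _s_at and _x_at probe sets the called totals were also 7 (amino acid sensing), 6 (GADD45 partners) and 18 (ATF4 branch) with control siRNA, and 5 (amino acid sensing), 6 (factors) and 17 (ATF4 branch) with SRC-1 siRNA. With the mean of probe sets they were 7 (GADD45 partners, control siRNA) and 14 (amino acid sensing, SRC-1 siRNA). For redox partners with control siRNA they were 8 with quantile normalization and 10 with the expression-dependent prior, and with SRC-1 siRNA 4 without a filter and 4 with only the groups compared. Over all genes, SRC-1 siRNA with glucose gave 2 calls with the filter at the 60th percentile and 3 with that prior. Without glucose it gave 1 with no filter, 5 with that prior and 1 with only the groups compared, and on average 2 with the mean of probe sets and 7 with that prior. The cause of these shifts was not tested.

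Leaving out each array gave, with control siRNA, 5 to 12 calls for mTORC1, 7 to 10 for amino acid sensing, 5 to 9 for AMPK and 3 to 5 for redox partners. With SRC-1 siRNA it gave 6 to 10 for mTORC1, 12 to 19 for p53 targets, 3 to 7 for redox partners and 6 to 8 for the 8 genes. For SRC-1 siRNA over all genes it gave 1 to 2 without glucose and 2 to 3 on average. The lone array left in a group is assumed to vary like the others. Dim signals, as of 6 SESN3 probe sets, limit what could be read there.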
